A study of Mus musculus with 44 samples.

Results

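A set of 10 genes of bacterial and viral sensing was followed across the study: the Toll-like receptors Tlr1, Tlr2, Tlr3, Tlr4, Tlr5, Tlr7 and Tlr9, the cytosolic receptors Nod1 and Nod2, and the adaptor Myd88. They were taken by name, matched to Ensembl identifiers, and read in every library; all 10 of 10 were found among the 29720 genes in the count tables, and all 10 passed the filter on low counts in each model. Messenger RNA of mouse intestine was sequenced in 44 libraries of 8 groups, all of strain C57BL/6. In the T cell transfer model, Rag1 null mice, which make no T or B cells of their own, received 400000 naive T cells and developed colitis within 8 to 12 weeks (inflamed), or 200000 bulk T cells (non-inflamed controls); their age is not given in the labels. In the TNFΔARE model, Tnf ΔARE/+ heterozygotes (inflamed), which carry a deletion of the AU-rich element of Tnf in the germ line, were compared with Tnf +/+ littermates (non-inflamed) at 16 weeks of age. Mice of every group were dosed with vehicle or with 3 mg/kg of ATI-450, which inhibits the kinase MK2, re-dosed after 16 h, and killed 90 min after the second dose. The transfer model holds 5 non-inflamed vehicle, 6 inflamed vehicle, 6 non-inflamed inhibitor and 6 inflamed inhibitor libraries, and the TNFΔARE model holds 5, 5, 5 and 6 in the same order. The labels name the tissue only as intestine, and the protocol lists distal colon and ileum.

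Toll-like receptors sit in the plasma membrane or in endosomes and bind conserved molecules of microbes: lipoproteins, lipopolysaccharide and flagellin at the cell surface, and nucleic acids inside endosomes. Most of them signal through the adaptor MyD88 to the kinases that activate NF-kB and the mitogen-activated protein kinases, and MK2 lies below p38 in the second of these branches. NOD1 and NOD2 sense fragments of peptidoglycan in the cytosol and signal through RIPK2. In the intestine, these receptors are found on epithelium, macrophages, dendritic cells and other resident cells that meet the microbiota.

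Reference promoter sequences are shown for Tlr2, Nod1 and Nod2, whose levels separated inflamed from control mice without overlap in the TNFΔARE model, and for the adaptor Myd88, which did so in the transfer model. Tlr1 also separated in the TNFΔARE model, but it did not pass the test described below and is not shown. Each window runs from 250 bases before to 50 bases after a transcription start in RefSeq (build GRCm38.p6), read 5′ to 3′ on the gene's strand, and 8 of the 10 members had one (all but Tlr4 and Tlr7). Capitals mark matches, on either strand, to the NF-kB consensus, to the PU.1 core GAGGAAG, to the AP-1 site TGANTCA or to the core of the interferon-stimulated element. The Tlr2 window is chr3:83841559-83841858, Nod1 is chr6:54972563-54972862, Nod2 is chr8:88647097-88647396 and Myd88 is chr9:119339969-119340268.
Tlr2: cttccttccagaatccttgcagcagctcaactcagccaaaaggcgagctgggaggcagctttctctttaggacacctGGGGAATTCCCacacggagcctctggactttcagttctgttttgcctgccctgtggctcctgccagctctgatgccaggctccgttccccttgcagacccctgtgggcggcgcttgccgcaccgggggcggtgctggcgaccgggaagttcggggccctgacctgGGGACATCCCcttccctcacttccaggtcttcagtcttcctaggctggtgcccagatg
Nod1: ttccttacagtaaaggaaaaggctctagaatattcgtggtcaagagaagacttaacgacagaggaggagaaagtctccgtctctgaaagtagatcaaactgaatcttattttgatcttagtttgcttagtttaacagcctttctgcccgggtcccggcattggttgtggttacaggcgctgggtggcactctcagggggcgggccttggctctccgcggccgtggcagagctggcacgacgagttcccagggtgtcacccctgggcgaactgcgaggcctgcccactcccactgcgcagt
Nod2: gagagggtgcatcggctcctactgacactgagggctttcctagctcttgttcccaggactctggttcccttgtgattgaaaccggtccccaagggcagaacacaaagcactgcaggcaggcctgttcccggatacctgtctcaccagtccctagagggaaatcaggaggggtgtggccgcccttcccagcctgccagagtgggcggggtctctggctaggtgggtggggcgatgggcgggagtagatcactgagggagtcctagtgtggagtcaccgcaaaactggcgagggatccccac
Myd88: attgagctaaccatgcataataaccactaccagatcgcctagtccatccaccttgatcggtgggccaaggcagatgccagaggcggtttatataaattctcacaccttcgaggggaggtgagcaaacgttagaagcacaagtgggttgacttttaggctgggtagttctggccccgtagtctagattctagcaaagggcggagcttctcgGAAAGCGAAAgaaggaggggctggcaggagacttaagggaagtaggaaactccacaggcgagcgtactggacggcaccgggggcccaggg
The Tlr2 window held 2 separate stretches that match the NF-kB consensus, one of which holds a pair of overlapping matches. That consensus is found in 8.18% of 27025 promoter windows of the same length. The Myd88 window held 1 match to the interferon-stimulated element, which 3.49% of windows hold. The Nod1 and Nod2 windows held none of the 4 motifs (PU.1, 13.5% of windows; AP-1, 7.93%). Among the windows not shown, that of Tlr3 held an NF-kB match, that of Tlr1 a PU.1 match, and that of Tlr9 PU.1 and AP-1 matches. The Tlr5 window held none. These matches describe letters in the reference and were not tested for binding.

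Library totals ran from 5953607 to 22347011 counts in transfer libraries and from 5800923 to 13113931 counts in TNFΔARE libraries. Tissue markers fitted distal colon in 22 of the 23 transfer libraries, with Hoxb13, a homeobox gene of the most distal gut, at 98.0 to 562 counts per 1000000 counts (CPM), and small intestine in the 21 TNFΔARE libraries, with the enterocyte sucrase-isomaltase Sis at 790 to 5390 CPM and Hoxb13 at most at 0.965 CPM. Among other genes listed for distal colon, the water channel Aqp8 (log2 fold change 7.78 ± 1.76 (SE), adjusted p = 0.0031) and the carbonic anhydrase Car1 (7.21 ± 1.7, adjusted p = 0.00564) were higher in inflamed than in control TNFΔARE vehicle mice by edgeR's quasi-likelihood test, and the chloride exchanger Slc26a3 was lower (-1.4 ± 0.22, adjusted p = 0.00016), while Car4 (-0.99) and Ceacam20 (-0.02) did not pass. Car1 was at 1.22 to 776 CPM in those inflamed libraries and at 0.42 to 2.78 CPM in their controls, and its part in the results was not tested. The exception was inflamed vehicle library 3 of the transfer model, with Hoxb13 at 0.0715 CPM and Sis at 6070 CPM, so its transcripts are those of small intestine; among the other transfer libraries Sis reached at most 186 CPM. In addition, 5 inflamed transfer libraries (vehicle 1 and 5, inhibitor 3, 5 and 6) held the pancreatic protease transcript Prss2 at 45.3 to 3250 CPM, against at most 0.639 CPM in the other transfer libraries. Member calls of the transfer model are therefore given with and without these 6 libraries, of which 3 are in the vehicle groups. The epithelial marker Epcam was listed at 0 in most libraries while Vil1, another epithelial gene, was at 468 CPM or more, so a listed 0 can be a failed estimate. Rag1 itself, the gene that is null in the transfer hosts, was at 0.892 to 3.15 CPM in transfer libraries and at most at 0.167 CPM in TNFΔARE libraries; where in the gene these reads lie was not tested. The labels put libraries in 4 batches. In the vehicle groups of the transfer model only batch 4 held both inflamed (5) and control (2) libraries, and batch 2 was the one that held both in the TNFΔARE model (4 and 5).

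At rest the members differed widely in level. Divided by the length of the annotated exons, Tlr1 stood highest in the non-inflamed vehicle group of the transfer model (median 17.3 CPM per kb), next to Myd88 (13.8). Tlr2 (5.82) and Tlr4 (5.81) were close to each other, followed by Nod1 (3.79) and Tlr3 (2.32) on the same per-length scale. Tlr5, Nod2, Tlr7 and Tlr9 lay under 1, at 0.603, 0.443, 0.348 and 0.122 CPM per kb. In the non-inflamed vehicle ileum of the TNFΔARE model the order was headed by Myd88 (16.2 CPM per kb), then Tlr3 (3.43), Tlr1 (2.89), Tlr2 (1.78) and Nod1 (1.74), with the other 5 members under 1. Tlr1 thus stood on top in the transfer controls and Myd88 in the TNFΔARE littermates. These groups differ in gut region, Rag1 genotype and batch, which cannot be told apart. Tlr1 is a close paralog of the neighbouring Tlr6, so reads may be shared between the 2 genes and the Tlr1 values are uncertain.

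**Figure D1:**
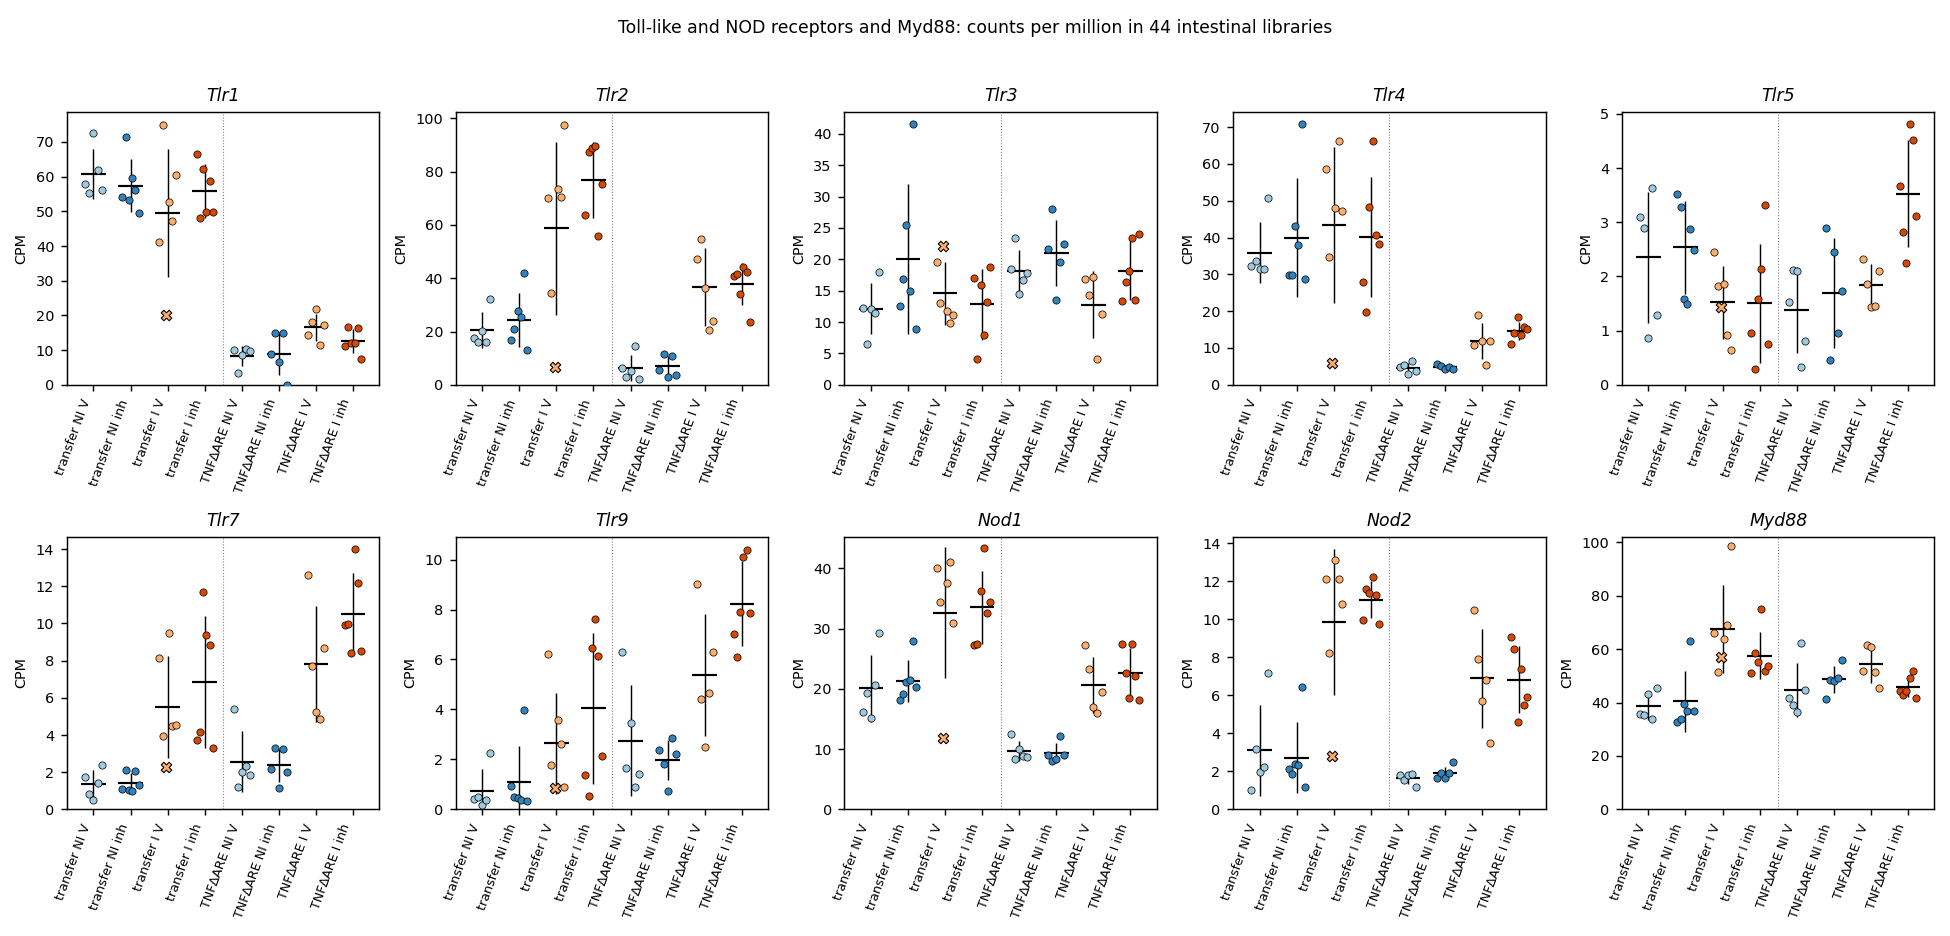
CPM (vertical axis, linear, its own scale in each panel) of the 10 members in every library of the 8 groups (NI, non-inflamed; I, inflamed; V, vehicle; inh, ATI-450). Points are libraries, horizontal bars group means, vertical lines 1 SD (cut at 0), and the cross is the transfer library with small intestinal transcripts; Tlr2 and Nod2 stand higher in the inflamed groups of both models, and Tlr1 and Tlr4 stand higher in the transfer model.

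The first comparison asked how the members differ between inflamed and non-inflamed mice given vehicle. In the transfer model 4 of 10 members were higher and none lower at an adjusted p under 0.05, where 14.2% of 15317 genes passed, 7.9% as higher and 6.28% as lower. These were Tlr2, Tlr7, Nod2 and Myd88. In the TNFΔARE model 5 of 10 were higher and none lower, against 15.9% of 14370 genes (8.66% higher, 7.27% lower). These were Tlr2, Tlr4, Tlr7, Nod1 and Nod2. The median log2 fold change of the members was 0.61 in the transfer model, where the median of all genes was 0.05, and 1.04 in the TNFΔARE model, where it was -0.02. Fold changes below are log2 values from edgeR's quasi-likelihood test with their standard error (SE), with batch in the model, which a plain ratio of CPM leaves out; p-values are adjusted by Benjamini-Hochberg over all genes tested. Separate animals are not stated for each library, so the p-values measure the spread between these samples.

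Among the surface receptors, Tlr2, which binds bacterial lipoproteins together with Tlr1 or Tlr6, changed most. In the ileum of the TNFΔARE littermates, it was at 6.15, 2.9, 5.36, 14.5 and 2.1 CPM, and in the inflamed vehicle mice at 47.2, 54.9, 36.5, 20.7 and 24.1 CPM. Every inflamed library lay above every control. Its log2 fold change was 2.63 ± 0.44 (SE), a 6.18-fold difference (adjusted p = 0.000329). In the transfer controls Tlr2 was at 17.5, 16.2, 20.2, 16.1 and 32.2 CPM, and in the 6 inflamed vehicle libraries it had a lowest value of 6.72, a median of 70.2 and a highest of 97.6 CPM. Thus 5 of 6 inflamed libraries lay above all controls, and the sixth, the library with small intestinal transcripts, lay below all of them. Here the log2 fold change was 1.44 ± 0.47 (adjusted p = 0.0446), 1.67 without that library (adjusted p = 0.00159), and 1.77 without all 6 libraries of unusual tissue content (adjusted p = 0.0213). Without transfer control 7, the highest of its group, it was 1.84 (adjusted p = 0.0262). The call was lost without the filter on low counts (adjusted p = 0.0601), with limma on the deposited normalized signal (0.173) and with edgeR's older quasi-likelihood method (0.0517).

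Tlr4, the receptor for lipopolysaccharide, was higher in the inflamed TNFΔARE ileum and not detectably different in the transfer colon. The littermates had 4.94, 5.34, 2.94, 6.42 and 3.73 CPM and the inflamed vehicle mice 10.9, 19.0, 11.9, 5.37 and 12.0 CPM. One inflamed library, number 4, lay within the control range. This gave a log2 fold change of 1.29 ± 0.26 (adjusted p = 0.0015). In the transfer model the controls had 32.3, 33.6, 31.4, 31.4 and 50.7 CPM and the inflamed libraries ran from 5.94 through a median of 47.6 to 66.1 CPM, with a log2 fold change of -0.01 ± 0.39 (95% interval -0.82 to 0.8; adjusted p = 0.987). Without library 3, whose 5.94 CPM is the lowest of that group, it was 0.21 (adjusted p = 0.533).

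Tlr1 did not pass in either model. In the TNFΔARE ileum the 5 inflamed vehicle libraries (11.6 to 21.8 CPM) all lay above the 5 controls (3.34 to 10.3 CPM), with a log2 fold change of 0.96 ± 0.52 (adjusted p = 0.254). In the transfer colon the groups overlapped, at 20.2 to 74.9 CPM against 55.2 to 72.7 CPM (log2 fold change -0.23 ± 0.24, adjusted p = 0.529). Tlr5, the flagellin receptor, was read at only 12 to 39 counts per inflamed transfer library and 3 to 20 counts per TNFΔARE control library. Its log2 fold changes were -0.89 ± 0.45 (adjusted p = 0.185) in the colon and 0.42 ± 0.44 (adjusted p = 0.623) in the ileum.

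Of the endosomal receptors, Tlr7, which binds single-stranded RNA, was higher with inflammation in both models. In the transfer controls it was at 1.76, 0.811, 0.489, 1.42 and 2.41 CPM, and the 6 inflamed libraries had a lowest value of 2.29, a median of 4.52 and a highest of 9.51 CPM. Only the library with small intestinal transcripts fell inside the control range. The log2 fold change was 1.65 ± 0.38 (adjusted p = 0.00876), 1.78 without that library (adjusted p = 0.00247) and 1.82 without all 6 (adjusted p = 0.0327). In the TNFΔARE model the littermates had 5.39, 1.22, 2.0, 2.32 and 1.87 CPM, and the inflamed mice 12.6, 7.7, 5.24, 4.88 and 8.67 CPM. Control library 1, at 5.39 CPM, lay above 2 inflamed libraries. With a log2 fold change of 1.55 ± 0.36 the gene passed (adjusted p = 0.00512), but not with limma on the deposited normalized signal (1.84, adjusted p = 0.0712) or with the compared groups alone (1.54, adjusted p = 0.0606).

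Tlr9, the receptor for unmethylated CpG DNA, had similar point estimates in the 2 models without passing, at 0.89 ± 0.5 in the transfer colon (adjusted p = 0.236) and 0.88 ± 0.43 in the TNFΔARE ileum (adjusted p = 0.195). One control library in each model stood high, at 2.26 CPM (transfer control 7) where the other 4 were at 0.183 to 0.507 CPM, and at 6.31 CPM (TNFΔARE control 1) where the others were at 0.885 to 3.47 CPM. Without transfer control 7 the log2 fold change was 1.98 (adjusted p = 0.0233), and without TNFΔARE control 1 it was 1.5 (adjusted p = 0.0166). Tlr3, the double-stranded RNA receptor, which signals through TRIF rather than MyD88, had log2 fold changes of 0.04 ± 0.41 (adjusted p = 0.959) and -0.52 ± 0.29 (adjusted p = 0.258). All 5 inflamed TNFΔARE libraries (4.15 to 17.2 CPM) lay below the control median of 17.8 CPM, with overlapping ranges.

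The peptidoglycan receptor Nod2 (chr8:88647315-88688474, plus strand) had the smallest adjusted p of the 10 in the TNFΔARE model. The littermates had 1.82, 1.56, 1.79, 1.88 and 1.17 CPM, and the inflamed mice 10.5, 7.93, 5.72, 6.83 and 3.5 CPM. The lowest inflamed library stood clear of the highest control. Nod2 had a log2 fold change of 2.18 ± 0.23, a 4.53-fold difference (adjusted p = 2.86e-06). In the transfer colon Nod2 was at 1.03, 3.19, 1.96, 2.22 and 7.18 CPM in the controls, with library 7 apart, and at a lowest of 2.79, a median of 11.4 and a highest of 13.1 CPM in the inflamed libraries. The log2 fold change was 1.41 ± 0.44 (adjusted p = 0.0371). It was 1.6 without library 3 (adjusted p = 0.00811) and 1.54 without the 6 libraries (adjusted p = 0.0856), which no longer passes. Without control 7 it was 2.2 (adjusted p = 0.00375).

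Nod1 (chr6:54923949-54972612, minus strand), which senses peptidoglycan mostly of Gram-negative bacteria, rose in the TNFΔARE ileum from 12.5, 8.35, 10.1, 8.85 and 8.63 CPM in the littermates to 27.2, 23.3, 17.0, 16.0 and 19.4 CPM. The groups did not overlap and the log2 fold change was 1.13 ± 0.18 (adjusted p = 0.000228). In the transfer model the controls had 16.1, 19.3, 15.2, 20.6 and 29.2 CPM and the inflamed libraries a lowest of 11.9, a median of 36.0 and a highest of 41.0 CPM. There, 5 of 6 inflamed libraries lay above every control and library 3 below every one, and the log2 fold change of 0.5 ± 0.23 did not pass (adjusted p = 0.148). Without library 3 it was 0.66 (adjusted p = 0.00293), so that 1 library decides the call; without all 6 it was 0.58 (adjusted p = 0.0648), and without a batch term it was 0.7 (adjusted p = 0.0303).

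The adaptor Myd88 (chr9:119335934-119341411, minus strand) passed in the transfer mice and did not pass in the TNFΔARE mice. In the colon it was at 35.7, 35.4, 43.3, 33.8 and 45.6 CPM in the controls, and at a lowest of 51.3, a median of 64.9 and a highest of 98.7 CPM in the inflamed libraries. It was the one member whose ranges did not overlap there, where 6.58% of all genes tested did not overlap, 3.49% as higher and 3.09% as lower. The log2 fold change was 0.72 ± 0.19, a 1.64-fold difference (adjusted p = 0.0177); it was 0.75 without library 3 (adjusted p = 0.0127) and 0.87 without the 6 libraries (adjusted p = 0.0329). In the ileum the ranges were 36.6 to 62.2 and 45.5 to 61.7 CPM, with a log2 fold change of 0.3 ± 0.14 (adjusted p = 0.151). Without TNFΔARE control 4, the highest at 62.2 CPM, it was 0.47 (adjusted p = 0.00676). Exons of Myd88 overlap those of Acaa1a on the opposite strand. The library kit keeps strand, and no source used here gives the strand setting of the counting.

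In the TNFΔARE vehicle mice 4 of 10 members had ranges that did not overlap (Tlr1, Tlr2, Nod1 and Nod2), as did 9.68% of all genes tested (5.94% higher, 3.74% lower). Within batch 2 alone (4 inflamed, 5 controls) the log2 fold changes were 2.69 for Tlr2, 1.34 for Tlr4, 1.11 for Nod1 and 2.24 for Nod2, with adjusted p from 0.000808 to 0.0401, while Tlr7 was at 1.54 with adjusted p = 0.0602. The transfer calls were less firm. Within batch 4 the log2 fold changes were 1.22 for Tlr2, 1.37 for Tlr7, 0.99 for Nod2 and 0.78 for Myd88, with adjusted p of 0.558 to 0.599. No gene of 15234 passed there, with 2 controls, and none of 14483 passed when the 2 vehicle groups were fitted alone. For Tlr2 and for Nod2 the call was lost in 8 of 11 fits that each left out 1 library (transfer controls 1, 2, 4 or 6, or inflamed 1, 4, 5 or 6), at adjusted p of 0.0549 to 0.172 for Tlr2 and 0.0509 to 0.17 for Nod2. Leaving out transfer control 6 also ended the calls of Tlr7 (adjusted p = 0.0554) and Myd88 (adjusted p = 0.115). Of the 5 transfer members not named with such a value above, none passed without the 6 libraries of unusual tissue content, at log2 fold changes of 0.15 for Tlr1 (adjusted p = 0.604), 0.01 for Tlr3 (0.991), 0.21 for Tlr4 (0.568), -0.74 for Tlr5 (0.415) and 1.03 for Tlr9 (0.317).

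**Figure D2:**
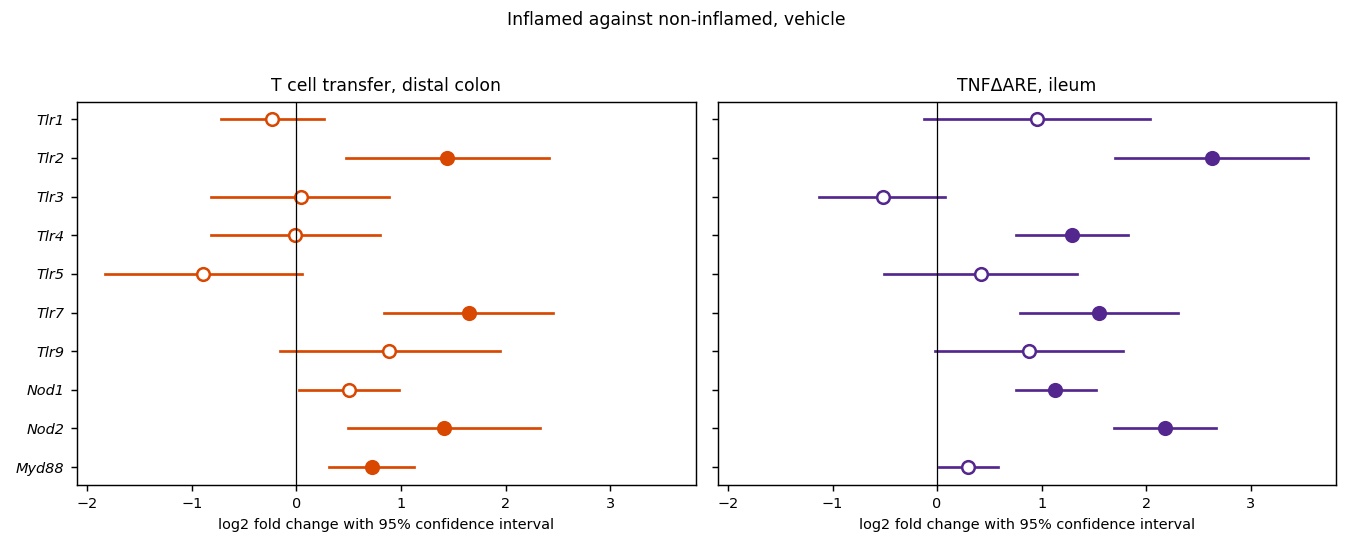
Log2 fold change of inflamed against non-inflamed vehicle mice (horizontal axis) for the 10 members in each model, with lines for 95% confidence intervals. Filled points passed an adjusted p of 0.05 (4 members in transfer mice, 5 in TNFΔARE mice); all filled points lie to the right of 0.

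A difference between the models was tested directly in a joint fit of all 44 libraries. None of the 10 members passed, where 5.27% of 15565 genes did (3.37% higher, 1.91% lower); 2 members had an unadjusted p under 0.05. For Tlr4 the transfer effect minus the TNFΔARE effect was -1.31 ± 0.47 on the log2 scale (adjusted p = 0.101), and for Nod1 it was -0.64 ± 0.29 (adjusted p = 0.216). Leaving out transfer inflamed library 5 or TNFΔARE inflamed library 4 gave -1.51 (adjusted p = 0.046) and -1.52 (adjusted p = 0.0499) for Tlr4. So the separate calls of Tlr4, Nod1 and Myd88 in 1 model each are not shown to differ between models. The 2 models differ in gut region, genotype and batch, and these cannot be told apart.

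The same contrast in mice given ATI-450 had 3 members higher and 1 lower in the transfer model, where 25.0% of genes passed (14.0% higher, 11.0% lower), and 6 higher in the TNFΔARE model, where 12.5% did (7.91% higher, 4.56% lower). Tlr2, Tlr7 and Nod2 were higher in both. For Tlr2 the log2 fold changes were 1.58 ± 0.41 (adjusted p = 0.00956) in the colon and 2.83 ± 0.57 (adjusted p = 0.00228) in the ileum, and for Nod2 they were 1.92 ± 0.4 (adjusted p = 0.00198) and 2.48 ± 0.3 (adjusted p = 1.69e-05). For Tlr7 they were 1.7 ± 0.36 (adjusted p = 0.002) and 2.07 ± 0.46 (adjusted p = 0.00515). In the transfer colon under ATI-450, Tlr2, Tlr7 and Nod2 were also the 3 members whose ranges did not overlap, as for 13.1% of genes (7.23% higher, 5.85% lower); Nod2 ran from 1.16 to 6.45 CPM in the controls and from 9.74 to 12.2 CPM in the inflamed mice. Without the libraries of unusual tissue content the log2 fold changes in the colon were 1.67 for Tlr2 (adjusted p = 0.00299), 1.81 for Tlr7 (0.00705) and 2.15 for Nod2 (0.00401).

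Tlr5 was the one member called lower. It was at 1.49 to 3.53 CPM (median 2.68) in the inhibitor-treated transfer controls and at 0.291 to 3.31 CPM (median 1.26) in the inflamed mice, with a log2 fold change of -1.39 ± 0.45 (adjusted p = 0.0311). The ranges overlapped, and leaving out any of control libraries 1, 2 and 6 or inflamed libraries 1, 2 and 6 took the adjusted p to 0.0568 to 0.136. It was 0.184 without a batch term, 0.0885 without the libraries of unusual tissue content, and 0.0528 within batch 1; batch 3 holds 1 of these controls. For Tlr2, leaving out inflamed inhibitor library 2 gave an adjusted p of 0.0509. Nod1 (0.49 ± 0.21, adjusted p = 0.0892) and Myd88 (0.44 ± 0.17, adjusted p = 0.0573) did not pass in this contrast. Without the control library 5, at 63.1 CPM the highest of its group, Myd88 was at 0.62 (adjusted p = 0.0129), and without inflamed library 5 it was at 0.46 (adjusted p = 0.0479). Myd88 also passed within batch 1 (0.62, adjusted p = 0.025) and with the compared groups alone (0.4, adjusted p = 0.0473), as did Nod1 with the latter (0.5, adjusted p = 0.00693) and without the libraries of unusual tissue content (0.55, adjusted p = 0.022). For Tlr3, with a log2 fold change of -0.76 ± 0.37 (adjusted p = 0.13), leaving out inflamed library 1 gave -1.2 (adjusted p = 0.0477).

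In the inhibitor-treated TNFΔARE mice Tlr4 (1.4 ± 0.34, adjusted p = 0.00977), Nod1 (1.5 ± 0.24, adjusted p = 0.000288) and Tlr9 (1.83 ± 0.57, adjusted p = 0.04) were higher as well. Tlr9 was at 0.719 to 2.85 CPM in the littermates and at 6.11 to 10.4 CPM in the inflamed mice. In this contrast 6 of 10 members had ranges that did not overlap, as did 22.7% of genes (11.8% higher, 10.9% lower). Only 1 of these inflamed libraries, number 1, shares batch 2 with the controls, and without it the calls of Tlr2 (adjusted p = 0.0815), Tlr4 (0.1), Tlr7 (0.164), Tlr9 (0.348) and Nod1 (0.064) were lost, with log2 fold changes of 3.17, 1.65, 2.01, 1.82 and 1.34. Tlr9 also lost its call without control 2, 3 or 5 or without inflamed library 4 or 5 (adjusted p of 0.0535 to 0.0853), without the filter on low counts (0.0521), with limma on the deposited normalized signal (0.081) and with edgeR's older quasi-likelihood method (0.0552). Tlr7 lost its call with limma (1.47, adjusted p = 0.376). Within batch 2, with that 1 inflamed library against the controls, Tlr2, Tlr4, Tlr7 and Tlr9 did not pass. The log2 fold changes there were 1.24 for Tlr4, 2.11 for Tlr7 and 1.85 for Tlr9. Nod2 kept its call in all 11 fits that left out 1 library, at adjusted p up to 0.00241.

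The central question of the treatment was whether ATI-450 changed the members. None of 10 passed in inflamed or non-inflamed mice of either model, and none had an unadjusted p under 0.05 in edgeR's quasi-likelihood test. DESeq2 also called none of the 10, and none passed without the 6 libraries of unusual tissue content. Of all genes, 0.00653% passed in inflamed transfer mice and 0% in the other 3 inhibitor contrasts, so the count of members is at the background. Groups of treated and vehicle libraries overlapped for all 10 members in all 4 contrasts, against 0.144% of genes without overlap in inflamed transfer mice, 1.29% in inflamed TNFΔARE mice, 0.0914% in transfer controls and 0.362% in TNFΔARE littermates.

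In inflamed transfer mice Tlr2 had a lowest, median and highest value of 6.72, 70.2 and 97.6 CPM with vehicle and of 56.0, 81.4 and 89.6 CPM with ATI-450. Nod2 had 2.79, 11.4 and 13.1 CPM against 9.74, 11.4 and 12.2 CPM. The Nod2 medians nearly coincide, the ranges of both genes overlap, and the lowest vehicle values come from the library with small intestinal transcripts. The log2 differences (ATI-450 minus vehicle) ran from -0.52 for Tlr5 to 0.3 for Tlr2. The narrowest interval was that of Myd88, at -0.28 with 95% limits of -0.67 and 0.12, and for Tlr2 the limits were -0.65 and 1.25.

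In inflamed TNFΔARE mice Nod2 was at 3.5 to 10.5 CPM with vehicle and at 4.58 to 9.07 CPM with ATI-450, a log2 difference of 0.49 (95% limits -0.05 and 1.04; adjusted p = 0.989). Tlr5 had the largest difference of the 10, 0.89 (95% limits -0.11 and 1.89; adjusted p = 0.989), from 1.43 to 2.33 CPM with vehicle to 2.25 to 4.81 CPM with ATI-450. For Nod1 the difference was 0.28 (limits -0.16 and 0.72), and for Myd88 it was -0.15 (limits -0.51 and 0.2). These intervals still allow changes of this order, so equal levels were not shown. In TNFΔARE mice 5 of 6 inflamed libraries given ATI-450 were of batch 3 and 4 of 5 given vehicle were of batch 2. Batches were uneven in inflamed transfer mice too, where 5 of 6 vehicle libraries were of batch 4. Of those given ATI-450, 2 were of batch 1, 3 of batch 3 and 1 of batch 4. In non-inflamed mice the log2 differences ran from -0.3 to 0.64 in the transfer model and from -0.54 to 0.29 in the TNFΔARE model.

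**Figure D3:**
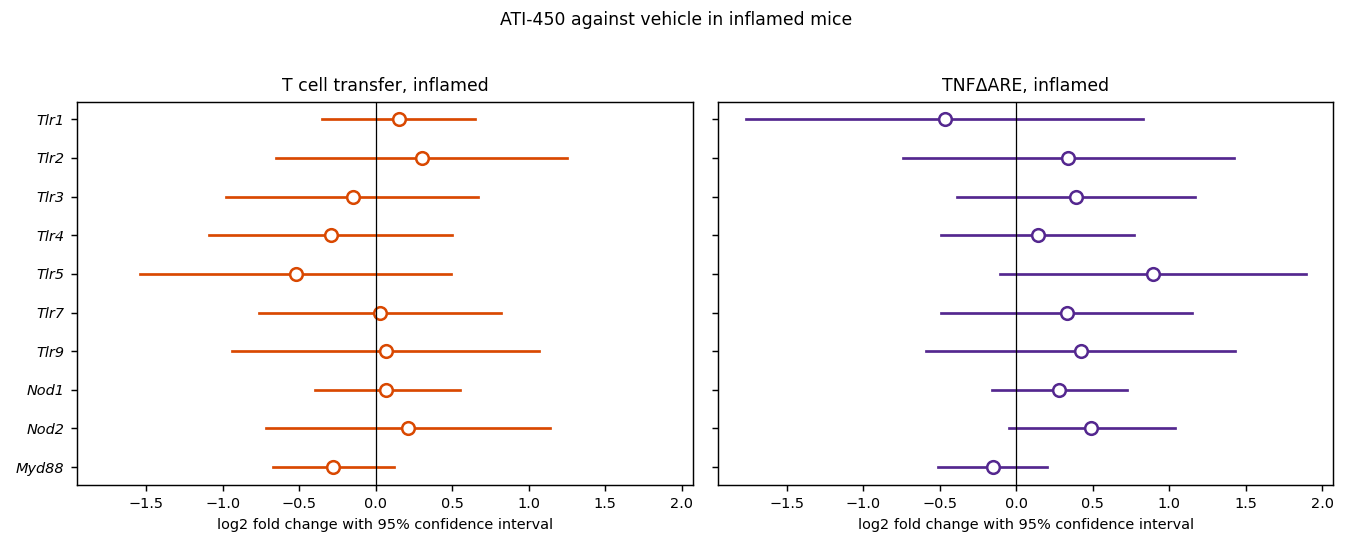
Log2 difference between ATI-450 and vehicle (horizontal axis) in the inflamed mice of each model, with 95% confidence intervals. All points are open, as none of the 10 members passed, and every interval crosses 0.

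Whether inflammation acted differently under ATI-450 was tested by the interaction of both factors. None of the 10 members passed in either model, with 0% of genes passing in both. The interaction was 0.14 ± 0.58 for Tlr2 and 0.5 ± 0.56 for Nod2 in the transfer model, and 0.21 ± 0.69 and 0.3 ± 0.37 in the TNFΔARE model. Thus the calls of Tlr5 and Tlr9 under ATI-450 alone are not shown to differ from the vehicle contrasts: for Tlr5 in the colon the interaction was -0.5 ± 0.59, and for Tlr9 in the ileum it was 0.96 ± 0.67, both at adjusted p = 1.

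Between the non-inflamed vehicle groups of the 2 models, 5 of 10 members differed, where 33.4% of 15565 genes did (18.2% higher, 15.2% lower). Tlr1, Tlr2, Tlr4 and Nod1 were lower in the TNFΔARE littermates than in the transfer controls, and Tlr9 was higher. Tlr4 was at 2.94 to 6.42 CPM against 31.4 to 50.7 CPM, 7.66-fold lower (log2 fold change -2.94 ± 0.38, adjusted p = 7.32e-08). Tlr1 was at 3.34 to 10.3 CPM against 55.2 to 72.7 CPM (-2.86 ± 0.45, adjusted p = 2.6e-06). Tlr2 (-1.72 ± 0.45, adjusted p = 0.00267) and Nod1 (-1.05 ± 0.22, adjusted p = 0.000171) differed less, and these 4 were the members whose ranges did not overlap, as for 19.8% of genes (8.47% lower, 11.3% higher). The library of the transfer model with small intestinal transcripts had 20.2 CPM of Tlr1, 6.72 of Tlr2, 5.94 of Tlr4 and 11.9 of Nod1, each below every transfer control. Its Tlr1 lay above every TNFΔARE littermate (3.34 to 10.3 CPM), and its Tlr9, at 0.858 CPM, lay within the transfer control range. It is 1 inflamed library of batch 4 set beside non-inflamed controls, and the cause of its levels was not tested.

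Tlr9 was at 0.885 to 6.31 CPM in the ileum and at 0.183 to 2.26 CPM in the colon (1.87 ± 0.67, adjusted p = 0.027). Its call was lost without any one of transfer controls 1, 2, 4 and 6 or TNFΔARE controls 1 and 3, and without TNFΔARE control 1 the log2 fold change was 1.27 (adjusted p = 0.172). Without transfer control 7, the highest of its group, it was 2.87 (adjusted p = 0.00215), and with batch numbers taken as shared by both models it was -0.08 (adjusted p = 0.979). Summed over 6 B cell markers the level was 10.2 to 228 CPM in these littermates and 0.331 to 0.983 CPM in these controls. The part of B cells in the Tlr9 difference was not tested. No batch holds controls of both models, so gut region, Rag1 genotype and batch cannot be told apart here.

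**Figure D4:**
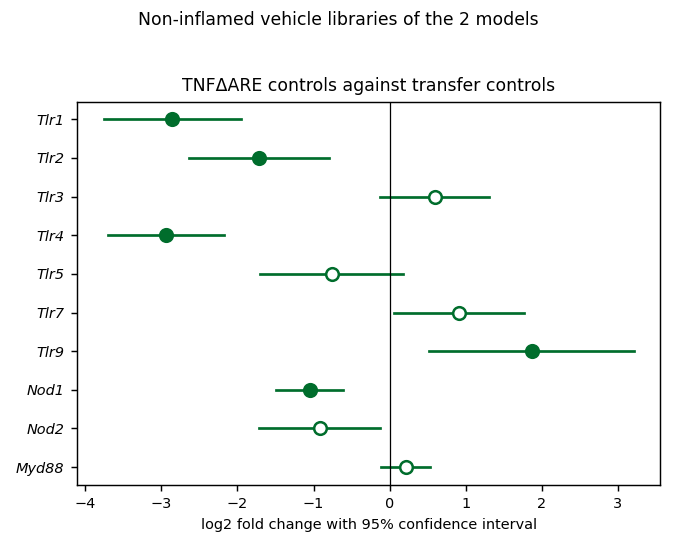
Log2 fold change of the non-inflamed vehicle TNFΔARE littermates against the non-inflamed vehicle transfer controls (horizontal axis) with 95% confidence intervals. Filled points passed an adjusted p of 0.05: Tlr1, Tlr2, Tlr4 and Nod1 lie left of 0 and Tlr9 right of it.

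Over the 8 groups, the ordering by median CPM differed among members. Tlr2 ran from 81.4 CPM in inflamed inhibitor-treated transfer mice and 70.2 in their vehicle counterparts, through 41.3 and 36.5 in inflamed TNFΔARE mice, to 5.72 and 5.36 in the TNFΔARE littermates. The ranges of neighbouring groups in that order overlapped except between the transfer vehicle controls (16.1 to 32.2 CPM) and the inhibitor-treated littermates (2.98 to 11.5 CPM). For Tlr4 the one gap between neighbours was between all 4 transfer groups (medians 32.3 to 47.6 CPM) and the 4 TNFΔARE groups (4.76 to 14.6 CPM), although library 3, at 5.94 CPM, falls among the latter. Nod2 medians fell into an inflamed set of 6.66 to 11.4 CPM and a non-inflamed set of 1.79 to 2.23 CPM in both models; in the transfer model library 3 of the inflamed vehicle mice fell below the inflamed set of medians, while library 7 of the vehicle controls (7.18 CPM) and library 5 of the inhibitor-treated controls (6.45 CPM) lay near or within it. Medians of Myd88 ran from 35.7 to 64.9 CPM. Tlr1 was listed at 0 in TNFΔARE inhibitor-treated littermate 5, where the other 4 libraries held 6.47 to 14.8 CPM.

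Markers of macrophages and monocytes moved with the same contrasts. Their summed level over 10 genes ran from 151 to 439 CPM in transfer controls and from 279 to 3850 CPM in inflamed vehicle libraries, the lowest being library 3, and 8 of 10 were called higher. In the TNFΔARE model it ran from 246 to 560 CPM in the littermates and from 1960 to 4590 CPM in the inflamed mice, and 10 of 10 were called higher. Csf1r, the receptor that keeps macrophages alive, had log2 fold changes of 1.9 ± 0.32 (adjusted p = 0.00219) and 2.11 ± 0.28 (adjusted p = 3.42e-05). Neutrophil markers summed to 82.2 to 706 CPM against 59.9 to 2020 CPM in the transfer model (8 of 9 called higher) and to 7.11 to 12.1 CPM against 154 to 354 CPM in the TNFΔARE model (7 of 7 tested called higher). Without the 6 libraries of unusual tissue content, 9 of 10 macrophage and 6 of 9 neutrophil markers were called higher in the transfer model. No marker of either list was at 0 in every library of these groups. In whole tissue, more cells of a type and more RNA per cell cannot be told apart, and the part of these cells in the receptor differences was not tested.

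Other cell markers moved as well. T cell markers, in hosts that were given different T cells by design, summed to a median of 9.53 CPM in transfer controls (lowest 2.32) and to 27.8 to 124 CPM in inflamed vehicle mice, with overlapping ranges, and 5 of 5 were called higher, among them Cd2 (3.58 ± 0.69, adjusted p = 0.00331) and Cd3d (3.6 ± 0.89, adjusted p = 0.0116). In the TNFΔARE model 0 of 5 were called. Smooth muscle markers summed to 2480 to 8640 CPM in transfer controls and to 1450 to 2930 CPM in inflamed vehicle mice, with 3 of 6 called lower, such as Myh11 (-1.48 ± 0.36, adjusted p = 0.0114). Without the 6 libraries of unusual tissue content 3 of 5 T cell and 0 of 6 smooth muscle markers were called. Dendritic cell markers rose in 3 of 6 in the TNFΔARE model, with Itgax at 2.23 ± 0.28 (adjusted p = 1.65e-05) and sums of 17.5 to 36.8 CPM in littermates against a median of 95.4 and a highest of 139 CPM in inflamed mice, without overlap; 1 of 6 was called in the transfer model. Enterocyte markers fell in 4 of 6 in the TNFΔARE model, with Sis at -1.73 ± 0.26 (adjusted p = 0.000116) and sums of 9780 to 29900 CPM against 6210 to 15000 CPM. In the transfer model the enterocyte markers Alpi, Apoa1 and Sis and the Paneth cell markers Defa24, Itln1 and Lyz1 were called higher. Without the 6 libraries of unusual tissue content 0 of 4 enterocyte and 1 of 4 Paneth cell markers were called there. Of the fibroblast markers, Dcn (1.57 ± 0.27, adjusted p = 0.000452), Col1a2 and Lum were higher in the TNFΔARE model, and Col1a1 and Pdgfra did not pass. Of the plasmacytoid dendritic cell markers tested there, only Siglech was called (2.04 ± 0.43, adjusted p = 0.00232). In the transfer model Ccr9 of that list was higher, Klk1 and Smim5 were lower, and Siglech did not pass. The part of these cells in the member differences was not tested either.

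**Figure D5:**
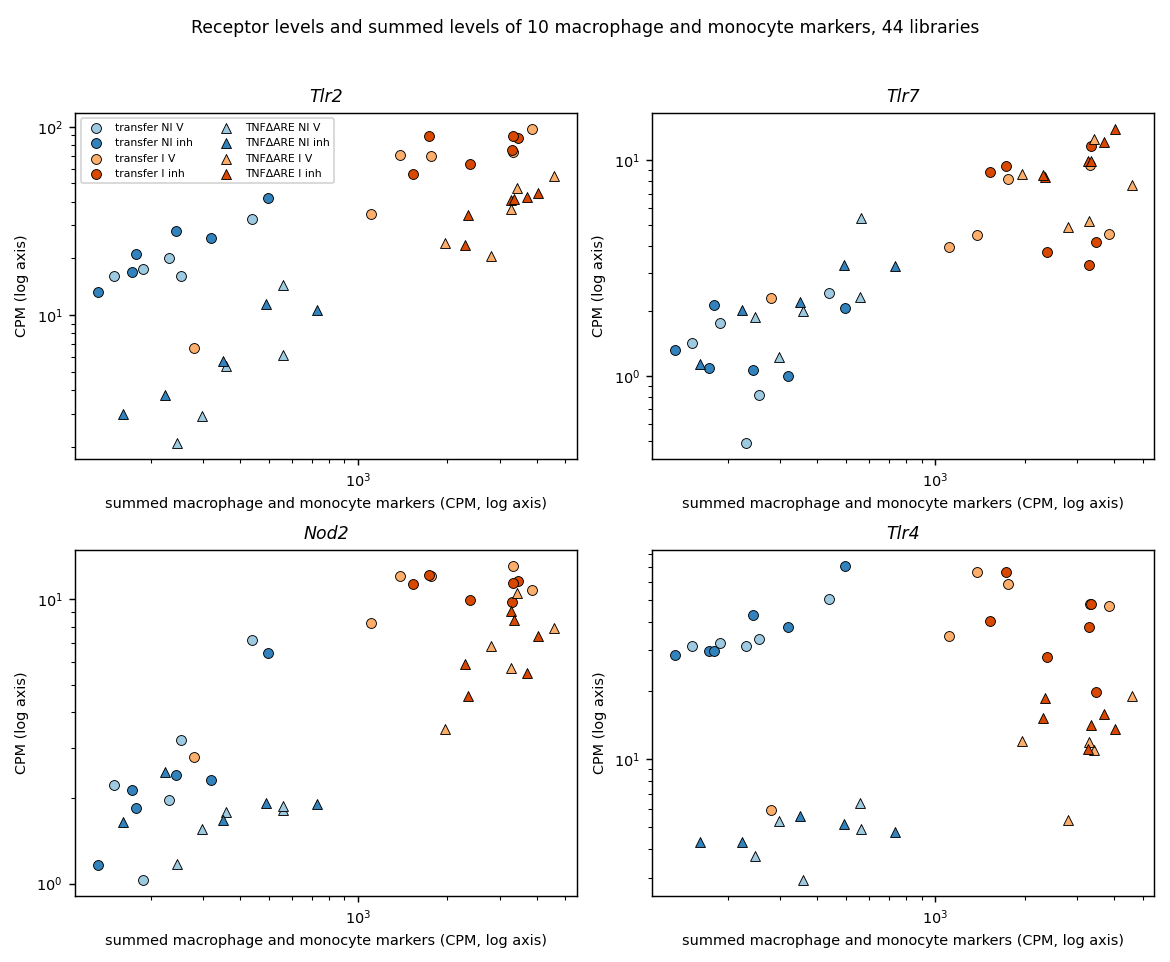
CPM of Tlr2, Tlr7, Nod2 and Tlr4 (vertical log axes) against the summed CPM of 10 macrophage and monocyte markers (horizontal log axes) in each of 44 libraries, with circles for the transfer model and triangles for the TNFΔARE model. Libraries fall into a non-inflamed set (133 to 729 CPM of markers) and an inflamed set (1110 CPM or more), apart from the transfer library with small intestinal transcripts at 279 CPM; Tlr4 is higher in most circles than in the triangles at a like marker level.

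The other genes of these pathways were read from 9 lists of 98 genes. In the transfer model 21 of 93 tested were higher in inflamed vehicle mice and 1 lower (median log2 fold change 0.4 for co-receptors and 0.01 for the relay of IRAK, TRAF and TAK1 genes), and in the TNFΔARE model 28 of 91 were higher and 5 lower. Among all genes tested 7.9% were higher and 6.28% lower in the first, and 8.66% and 7.27% in the second. Without the 6 libraries of unusual tissue content 16 of 93 were higher and 3 lower in the transfer model. The count called there in either direction, 22 with all its libraries, ran from 0 with the compared vehicle groups alone to 42 with blocking on replicate number. With 1 library left out it ran from 12 to 30, the latter without transfer control 7. Of the 5 Toll-like receptors outside the 10 members, 3 were higher in the transfer model and 4 in the TNFΔARE model. Without the 6 libraries of unusual tissue content 2 were higher in the transfer model. Tlr13, which senses bacterial ribosomal RNA in mice, had log2 fold changes of 2.04 ± 0.4 (adjusted p = 0.00359) and 1.77 ± 0.28 (adjusted p = 0.000175), and Tlr6, the partner of Tlr2, 1.96 ± 0.41 (adjusted p = 0.00483) and 1.62 ± 0.33 (adjusted p = 0.00175). Tlr8 was at 2.19 ± 0.48 (adjusted p = 0.0034) in the ileum, and Tlr12 at 1.55 ± 0.46 (adjusted p = 0.0277) in the colon.

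Proteins that serve the receptors at the membrane and in endosomes were next. Cd14, which hands lipopolysaccharide to Tlr4, was among the co-receptors that rose in the ileum (2.84 ± 0.21, adjusted p = 2.57e-08), with Lbp (1.5 ± 0.21, adjusted p = 6.43e-05) and Ly86 (1.59 ± 0.44, adjusted p = 0.0162); 3 of 7 of this list were called. In the colon 2 of 7 rose, Ly86 (1.95 ± 0.53, adjusted p = 0.0179) and Cd180 (1.82 ± 0.54, adjusted p = 0.0297). Among 11 chaperones and trafficking genes, 4 rose in the colon (3 without the 6 libraries of unusual tissue content) and 5 in the ileum. Unc93b1, which carries the nucleic acid receptors to endosomes, rose in both (0.98 ± 0.24, adjusted p = 0.0104, and 1.15 ± 0.2, adjusted p = 0.000463). So did Slc15a3, an endolysosomal peptide transporter (2.54 ± 0.48, adjusted p = 0.00321, and 2.37 ± 0.32, adjusted p = 3.11e-05). Lgmn, an endolysosomal protease, rose in the colon (1.23 ± 0.22, adjusted p = 0.00256), and Ctss, another, in the ileum (0.73 ± 0.15, adjusted p = 0.00209).

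In the signalling core, of 14 genes of the relay none was higher and 1 was lower in each model, near the share of all genes called lower: Peli2 in the colon (-1.39 ± 0.35, adjusted p = 0.0127) and Peli1 in the ileum (-0.47 ± 0.15, adjusted p = 0.0332), both ubiquitin ligases. One adaptor of those tested was called in each model: Pik3ap1, which links receptors to phosphoinositide 3-kinase, in the colon (1.97 ± 0.37, adjusted p = 0.00301) and Ticam2, the bridge from Tlr4 to TRIF, in the ileum (2.15 ± 0.41, adjusted p = 0.00114). In the interferon regulatory branch Irf5 rose in both (2.1 ± 0.43, adjusted p = 0.00446, and 1.69 ± 0.31, adjusted p = 0.000792), beside Irf8 (0.92 ± 0.28, adjusted p = 0.035) and Ikbke (0.57 ± 0.15, adjusted p = 0.0147) in the colon. Without the 6 libraries of unusual tissue content 2 of 8 genes of this branch rose in the colon.

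In the NOD branch 2 of 12 rose in the colon, where 7.9% of all genes were called higher, a difference that was not tested. These were Card9, an adaptor downstream of C-type lectins and Nod2 (3.27 ± 0.65, adjusted p = 0.00368), and Nlrc3 (1.36 ± 0.43, adjusted p = 0.0404). Without the 6 libraries of unusual tissue content 1 of 12 rose and 2 fell in the colon. In the ileum Birc3, a ubiquitin ligase of RIPK2 complexes, rose (1.2 ± 0.15, adjusted p = 2.24e-05) and 3 of 11 fell, among them Card9 (-0.84 ± 0.26, adjusted p = 0.0293). The 2 models differed for Card9 by the direct test (transfer minus TNFΔARE 4.1 ± 0.67, adjusted p = 0.000313). Also lower in the ileum was Slc15a1, the peptide carrier of enterocytes (-1.46 ± 0.3, adjusted p = 0.00178). Among the negative regulators 2 of 15 rose in the colon, where 7.9% of all genes were called higher, a difference that was not tested either. These were Socs1 (2.56 ± 0.83, adjusted p = 0.0451) and Cd300a (2.14 ± 0.41, adjusted p = 0.00321). Without the 6 libraries of unusual tissue content 1 of 15 rose in the colon. In the ileum 7 of 15 rose, led by Tnip3 (7.06 ± 0.68, adjusted p = 2.21e-08), Il1rl1 (2.17 ± 0.28, adjusted p = 1.94e-05) and Cd300a (2.14 ± 0.24, adjusted p = 5.34e-06). Of 16 other microbial sensors tested, 4 rose in the colon and 6 rose and 1 fell in the ileum. The C-type lectins Clec4e (6.51 ± 1.28, adjusted p = 0.00356, and 7.48 ± 0.59, adjusted p = 2.75e-08) and Clec4d (6.03 ± 0.91, adjusted p = 0.000421, and 6.51 ± 0.65, adjusted p = 9.62e-07) had the largest changes, with Clec7a (3.26 ± 0.76, adjusted p = 0.00876) in the colon and Nlrp3 (3.08 ± 0.39, adjusted p = 1.93e-05) in the ileum. None of the listed genes tested passed in any inhibitor contrast.

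Genes whose pattern over the 44 libraries was most like each member were found among 13925 genes by Pearson's r of log2 CPM; the libraries share models, gut regions and batches, so r follows these. For Tlr2 they included Rab32 (r = 0.942) and Nox1 (0.939). For Nod2 they were Ly6i (0.947), S100a9 (0.945) and S100a8 (0.944), the last pair being the calprotectin subunits. For Tlr4 they were Pla2g4a (0.958), Slc2a1 (0.952) and Anxa8 (0.946), and for Nod1 they were Lrrk1 (0.93), Spata6 (0.927) and Cd14 (0.925). For Tlr7 they were Vsir (0.945), Arhgef6 (0.944) and Csf1r (0.944), and for Tlr9 Wdfy4 (0.942), Nckap1l (0.937) and Dock11 (0.923). The nearest to Tlr1 were Isg20 (0.837), Aim2 (0.833) and Nxpe4 (0.829), and to Tlr5 they were Tns3 (0.897), Soga1 (0.895) and Usp49 (0.867). For Myd88 they included Rnf19b (0.867) and Psmc2 (0.858), while the nearest to Tlr3, Gm37784, reached only 0.564. No member was among the 3 nearest of another. Between members r still ran up to 0.91 (Tlr2 with Nod1) and 0.86 (Tlr7 with Tlr9), and down to -0.42 (Tlr5 with Myd88).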

How the data were processed

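Poly-A selected, strand-specific RNA sequencing of mouse intestine gave 44 libraries. For each model the authors deposited expected counts per gene, rounded to whole numbers, and a normalized signal scaled per gene and library. Salmon 0.14.1, DESeq2, mm10 and GRCm38 appear in the submitters' processing notes; no source used here gives the annotation release or strand setting. Gene names, positions and exon lengths came from GENCODE M21 (29395 of 29720 identifiers matched).

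Counts were tested with edgeR 4.0.16 in R 4.3.3: filterByExpr, TMM, and robust quasi-likelihood fits of all groups of a model with group and batch, two-sided, Benjamini-Hochberg adjusted, threshold 0.05. The contrast between models used all 44 libraries with batch nested in model; the contrast of controls had no batch term. CPM use TMM over all libraries. The script was tested on simulated data. Alternatives were RLE scaling, DESeq2 1.42.0, leaving out the count filter or the batch term, blocking on replicate number, single batches, the compared groups alone, the normalized signal with limma 3.58.1 after adding 1, and each library left out; an older quasi-likelihood method and omission of the 6 libraries of unusual tissue content were added after seeing the data. Intervals cover the spread between libraries, and depth limits genes with few counts. No 2 libraries were identical.

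The members and lists were chosen with earlier results of these data known. Named are all 10 members, up to 3 called genes with the largest change per pathway list and vehicle contrast, and the 3 genes most like each member, of which 2 are not reported here; genes that mark tissues were chosen after their values were seen.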

Additional observations from a re-analysis of the deposited data

Results flagged for a closer look

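Of 80 sets of libraries (10 members in 8 groups), 14 had a lowest or highest library that stood apart from the rest by Dixon's test, where chance gives about 1 in 20. Non-inflamed inhibitor-treated transfer library 5, the only non-inflamed transfer library of batch 3, was flagged as the highest of 6 for 5 members: Tlr4 at 70.7 CPM (others up to 43.1), Tlr9 at 3.98 (up to 0.944), Nod1 at 28.0 (up to 21.5), Nod2 at 6.45 (up to 2.41) and Myd88 at 63.1 (up to 39.4). Without being flagged, it was also the highest for Tlr2 at 42.1 CPM (others up to 27.8) and Tlr3 at 41.6 (up to 25.4). Its macrophage and monocyte markers summed to 496 CPM, the highest of its group, and their part was not tested. Non-inflamed vehicle transfer library 7 was flagged as the highest of 5 for Tlr2 at 32.2 CPM (others up to 20.2), Tlr4 at 50.7 (up to 33.6) and Tlr9 at 2.26 (up to 0.507), with the same markers at 439 CPM, the highest of that group. Without being flagged, it was also the highest for Tlr3 (18.0 CPM), Tlr7 (2.41), Nod1 (29.2), Nod2 (7.18) and Myd88 (45.6).

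The transfer library with small intestinal transcripts was flagged as the lowest of 6 for Nod1, at 11.9 CPM against 31.0 to 41.0. Myd88 was highest in inflamed vehicle transfer library 6 at 98.7 CPM (others up to 69.0) and in inflamed inhibitor-treated transfer library 4 at 74.9 (up to 58.6). In the TNFΔARE model Tlr1 was lowest in vehicle littermate 2 at 3.34 CPM (others 8.52 to 10.3), Tlr7 highest in vehicle littermate 1 at 5.39 (up to 2.32), and Nod1 highest in inhibitor-treated littermate 4 at 12.2 (up to 9.07).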

How the results depend on the processing

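Of 1068 values of single members under other settings, 1020 kept their side of the threshold (922 with the same sign, and 98 that were not called in either fit with the other sign), 32 lost and 15 gained a call, and 1 reversed: Tlr9 in the contrast of controls, 1.87, was -0.08 (adjusted p = 0.979) when batch numbers were taken as shared by both models. Most of these values belong to members not called in the main fit, so the total says little of how firm the calls are. In transfer vehicle mice Tlr2 lost its call in 5 of 10 such settings, Nod2 in 3, and Tlr7 and Myd88 in 2 each. Among all 10 members, the count called in transfer vehicle mice, 4, was 0 with the compared groups alone and 0 within batch 4, and ran from 0 to 5 with 1 library left out. The count in transfer mice given ATI-450, 4, was 7 with the compared groups alone and 0 within batch 3, and ran from 2 to 5 with 1 library left out. The count in TNFΔARE mice given ATI-450, 6, was 2 within batch 2, and ran from 1 to 6 with 1 library left out. Batch 3 holds 1 of the transfer controls given ATI-450 and batch 2 holds 1 of the inflamed TNFΔARE mice given it, so each lone library is assumed to vary like the other groups. The count for the difference between models, 0, ran to 1 with 1 library left out. All counts for the inhibitor and its interaction with inflammation were 0 under every setting run. For the other genes of the pathways, the 22 called in transfer vehicle mice ran from 0 (the compared groups alone) to 42 (replicate block). The cause of these differences was not tested.

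Whether the labels' numbers pair libraries across groups was not settled by the correlations of same-numbered libraries. Transfer controls given vehicle or ATI-450 stood highest, with 3 of 4 correlations above 0.1 and a median of 0.394 (range -0.055 to 0.469). In every other contrast compared the median lay between -0.072 and 0.051. With the replicate block, calls among all genes in transfer vehicle mice went from 2172 to 6130, and member calls from 4 to 5; in TNFΔARE vehicle mice the member count was 5 in both fits. With the block Tlr5 passed in transfer vehicle mice (-2.34, adjusted p = 0.0126), and Tlr4 (1.26, adjusted p = 0.0821) and Tlr9 (1.27, adjusted p = 0.251) lost their calls in TNFΔARE mice given ATI-450. Counts of calls among all genes that moved by over 1.5 times were, in transfer vehicle mice, 3399 without a batch term and 1053 without the 6 libraries of unusual tissue content; in transfer mice given ATI-450, 3824 against 6320 (block) and 2 (batch 3); in TNFΔARE vehicle mice, 2288 against 1275 (compared groups alone) and 1310 (batch 2); in TNFΔARE mice given ATI-450, 1791 against 4485 (no batch term), 929 (block) and 305 (batch 2); for the difference between models, 821 against 1430 (no batch term) and 337 (without the 6 libraries); and for the controls, 5204 against 1987 (shared batch numbers). Depth limits Tlr5 and Tlr9, with as few as 3 counts in a library, Tlr7 (8) and Nod2 (10); Tlr1 was listed at 0 in 1 library.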
